A study of Mus musculus with 12 samples.

Results

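Type I interferon response genes are the genes that a cell switches on when interferon alpha or beta binds its surface receptor. The 37 genes described here were named from general knowledge of this response, with earlier results of these data known. They were looked up by symbol, and all 37 symbols were among the 31253 listed for each liver library. Of the 37, 32 stood above 1 TPM (a relative transcript level corrected for transcript length and library size) in at least 3 of the 12 libraries. They were tested among the 12120 genes in all that met the same condition. The other 5 members, Ifit2, Oas1g, Oas3, Ifi44 and Mx1, are given by their values only.

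The libraries came from livers of male C57BL6 mice, either wild type (WT) or carrying the CUGBP1 s302a knock-in, written S302A here. CUGBP1 is an RNA-binding protein encoded by Celf1, and the knock-in exchanges 1 of its serines for alanine, a change that TPM values cannot show. DEN (diethylnitrosamine) is a DNA-alkylating liver carcinogen, injected at 50 µg per g body weight when the mice were 3 weeks old. Livers were taken 30 to 38 weeks later, at an age of 33 to 41 weeks. The 4 groups, with n = 3 libraries each, were knock-in mice given DEN (S302A_DEN), wild-type mice given DEN (WT_DEN), untreated knock-in mice (S302A_Ctrl) and untreated wild-type mice (WT_Ctrl). Whether each library came from its own animal is not stated in the labels, and the p-values therefore cover the spread between these 12 samples only, which may be technical.

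In the textbook pathway, RNA or DNA in the wrong place is detected by sensors such as RIG-I and MDA5, and interferon is made and secreted. The interferon receptor, a pair of chains encoded by Ifnar1 and Ifnar2, then activates the kinases JAK1 and TYK2, which phosphorylate STAT proteins. The complex ISGF3, which contains STAT2 and IRF9, then binds a DNA element called ISRE before the start of its target genes. The products block viral RNA and protein synthesis, raise antigen presentation, amplify the response through IRF7 and end it through USP18. In liver, hepatocytes, Kupffer cells and endothelial cells can all carry out this response.

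The promoters of 7 members are shown because they carry the ISRE core element and because their levels are among those described in the paragraphs on the separate roles. Each stretch is the 250 bases before the transcript start in the RefSeq promoter table (build GRCm38.p6), read 5′ to 3′ on the strand of the gene, with every match to the ISRE core, on either strand, in capitals.
Isg15, chr4:156200819-156201068, minus strand: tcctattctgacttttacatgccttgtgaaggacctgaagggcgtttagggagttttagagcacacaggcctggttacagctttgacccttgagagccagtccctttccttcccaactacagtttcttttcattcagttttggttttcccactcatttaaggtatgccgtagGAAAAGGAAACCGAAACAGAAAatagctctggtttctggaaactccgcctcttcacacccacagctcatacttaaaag
Ifit1, chr19:34640639-34640888, plus strand: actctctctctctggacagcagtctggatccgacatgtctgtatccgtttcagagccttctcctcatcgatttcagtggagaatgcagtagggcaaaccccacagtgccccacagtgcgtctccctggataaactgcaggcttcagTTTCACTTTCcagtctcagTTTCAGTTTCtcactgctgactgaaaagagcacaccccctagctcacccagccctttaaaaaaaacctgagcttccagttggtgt
Ifit3, chr19:34583279-34583528, plus strand: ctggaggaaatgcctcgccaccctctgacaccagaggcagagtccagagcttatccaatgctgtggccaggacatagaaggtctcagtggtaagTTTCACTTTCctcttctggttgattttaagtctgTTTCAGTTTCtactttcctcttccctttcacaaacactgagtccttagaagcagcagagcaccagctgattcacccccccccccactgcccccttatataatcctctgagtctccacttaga
Oas1a, chr5:120907526-120907775, minus strand: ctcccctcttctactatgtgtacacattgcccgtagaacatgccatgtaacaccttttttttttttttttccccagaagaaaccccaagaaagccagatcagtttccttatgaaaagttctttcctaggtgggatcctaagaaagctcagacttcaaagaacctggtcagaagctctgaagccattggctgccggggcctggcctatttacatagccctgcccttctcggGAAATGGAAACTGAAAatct
Oas1g, chr5:120887614-120887863, minus strand: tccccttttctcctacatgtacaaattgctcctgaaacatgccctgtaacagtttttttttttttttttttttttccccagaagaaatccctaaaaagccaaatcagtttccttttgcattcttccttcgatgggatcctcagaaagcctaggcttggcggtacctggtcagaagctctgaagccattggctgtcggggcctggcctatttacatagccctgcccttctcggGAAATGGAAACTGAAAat
Bst2, chr8:71537473-71537722, minus strand: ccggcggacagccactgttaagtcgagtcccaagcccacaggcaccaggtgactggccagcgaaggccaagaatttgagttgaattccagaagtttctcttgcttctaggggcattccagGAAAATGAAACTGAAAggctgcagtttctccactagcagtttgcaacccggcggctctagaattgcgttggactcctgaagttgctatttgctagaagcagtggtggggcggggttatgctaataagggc
Cxcl10, chr5:92348890-92349139, minus strand: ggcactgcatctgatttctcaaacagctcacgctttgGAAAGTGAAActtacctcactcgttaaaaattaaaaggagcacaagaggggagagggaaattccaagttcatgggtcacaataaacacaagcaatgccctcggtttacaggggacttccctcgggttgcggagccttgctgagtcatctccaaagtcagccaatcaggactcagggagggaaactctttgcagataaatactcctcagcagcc

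In Isg15 the element occurred 3 times in overlapping copies that began 78, 72 and 66 bases before the start. Oas1a held overlapping copies that began 20 and 14 bases before the start, and its neighbour Oas1g held copies that began 18 and 12 bases before. The longest run of identical bases shared by the Oas1a and Oas1g stretches was 56 bases and covered these copies. Ifit1 and Ifit3 each held 2 separate copies on the opposite strand, which began 104 and 85 bases before the start in Ifit1 and 156 and 122 bases before in Ifit3. In windows that ran from 250 bases before to 50 bases after the start, the element was present in 13 of the 25 members with an entry (52.0%), against 3.99% of the 27025 symbols in the table. The other members with it were Stat2, Rsad2, Oas3, Trim30a, Ddx58 and Ifih1. A second element, GAS, known from the interferon gamma response and searched as TTCNNNGAA on both strands, was present in 5 of the 25 (20.0%), against 9.55% of symbols. Without an entry were Dhx58, Ifi27l2a, Ifi27l2b, Mx1, Mx2, Oas1b, Oas2, Parp14, Parp9, Rtp4, Usp18 and Zbp1. A match describes the letters in the window and is not a measured binding site.

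Results are given with and without S302A_DEN replicate 3, because this library was unlike the rest. Whether it came from different tissue could not be settled from the labels. Across genes, its Spearman correlation with each of the other 11 libraries lay between 0.877 and 0.913, against 0.937 to 0.980 among the others, and it listed 13083 symbols above 1 TPM, against 10839 to 11653. Its median-of-ratios factor, a measure of how high the typical gene stood, was 1.69, against 0.820 to 1.18 in the others. Across the 12120 tested genes, its log2(TPM + 1) stood a median of 0.79 above the mean of S302A_DEN replicates 1 and 2, and 70.8% of the tested genes were highest of the 12 libraries in it. The 8 hepatocyte markers summed to 36730 to 82261 TPM in the other 11 libraries and 49815 in S302A_DEN replicate 3, so hepatocyte transcripts were abundant in every library. Unlike most tested genes, none of the 8 was highest of the 12 libraries in S302A_DEN replicate 3. Of the 8, 5 lay below both other S302A_DEN replicates, and their median difference from the mean of these replicates was −0.29. No value in the files lay below 1, so a listed 1 means 1 or less. TPM does not keep sequencing depth, and the depth behind each value is unknown.

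Most members were measured at low levels. Of the 37 members, 22 stood above 1 TPM in all 12 libraries and 10 stood above 5 TPM in all 12. The most abundant member was Bst2, which encodes tetherin, a membrane protein that holds budding viruses at the cell surface. Summed over the 37 members, the TPM reached 482, 335 and 1689 in S302A_DEN replicates 1 to 3, 591, 446 and 392 in WT_DEN, 279, 275 and 295 in S302A_Ctrl, and 360, 363 and 291 in WT_Ctrl. The sum in S302A_DEN replicate 3 was above that of every other library, and the sums of the 5 other DEN libraries overlapped with those of the untreated livers only through S302A_DEN replicate 2. In bulk tissue, fewer cells of a type and less RNA per cell cannot be told apart.

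**Figure D1:**
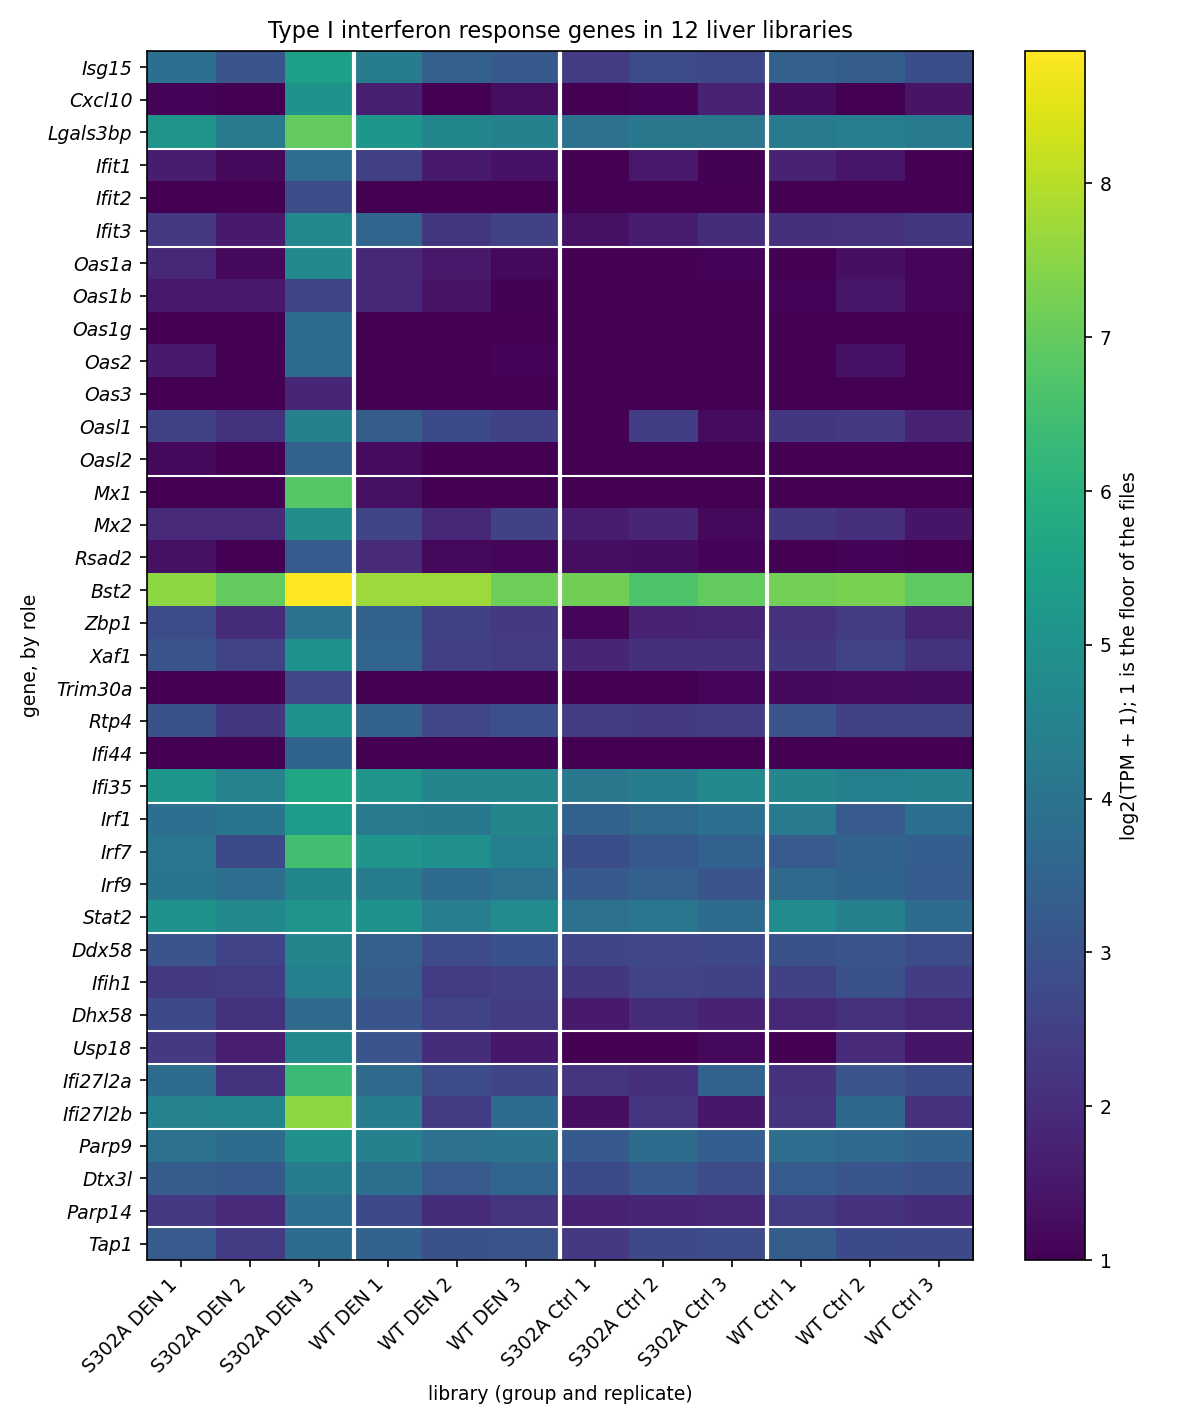
Levels of the 37 members, as log2(TPM + 1), in the 12 liver libraries. Rows are genes grouped by role, columns are libraries in the order S302A_DEN, WT_DEN, S302A_Ctrl and WT_Ctrl, and the colour bar gives the scale. S302A_DEN replicate 3 is the brightest column in each of the 37 rows.

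The transcription factors of the pathway were measured well above the floor. Irf7, the factor that amplifies interferon production, stood at 16.0, 5.74 and 88.0 TPM in S302A_DEN replicates 1 to 3 and 33.5, 29.8 and 19.9 TPM in WT_DEN, against 6.46, 7.97 and 9.80 TPM in S302A_Ctrl and 8.56, 10.2 and 9.27 TPM in WT_Ctrl. All WT_DEN libraries were above all WT_Ctrl libraries, whereas S302A_DEN replicate 2 fell below every S302A_Ctrl library and replicate 3 was above all others. The gene lies at chr7:141263183-141266499. Stat2, the ISGF3 subunit used by type I but not type II interferon, stood at 31.9, 26.1 and 32.8 TPM in S302A_DEN and 31.0, 19.4 and 26.8 TPM in WT_DEN, against 14.6, 16.0 and 12.5 TPM in S302A_Ctrl and 27.2, 20.6 and 12.7 TPM in WT_Ctrl. The knock-in groups did not overlap, and S302A_DEN replicate 3 was only 1.03-fold above replicate 1. Irf9, the DNA-binding subunit of ISGF3, stood at 15.8, 13.4 and 23.6 TPM in S302A_DEN and 18.8, 12.4 and 14.7 TPM in WT_DEN, against 8.44, 9.74 and 7.48 TPM in S302A_Ctrl and 12.3, 10.7 and 8.76 TPM in WT_Ctrl. DEN livers were above untreated livers without overlap in both genotypes, by a narrow margin in the wild type (12.4 against 12.3 TPM). Irf1, a factor also induced by interferon gamma, stood at 13.6, 15.7 and 39.3 TPM in S302A_DEN and 17.7, 17.0 and 22.7 TPM in WT_DEN, against 9.90, 12.3 and 13.5 TPM in S302A_Ctrl and 17.4, 8.64 and 13.6 TPM in WT_Ctrl. The knock-in groups did not overlap for Irf1, and the wild-type groups overlapped narrowly through WT_Ctrl replicate 1.

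Among the cytosolic RNA sensors, the level of Dhx58, which encodes LGP2, a helper of MDA5, separated DEN from untreated livers. It stood at 5.73, 3.45 and 12.3 TPM in S302A_DEN and 7.45, 4.98 and 4.14 TPM in WT_DEN, against 1.95, 3.00 and 2.47 TPM in S302A_Ctrl and 2.78, 3.36 and 2.73 TPM in WT_Ctrl. Neither genotype showed an overlap between its DEN and untreated libraries. Across genotypes the margin was narrow, with 3.45 TPM in S302A_DEN replicate 2 against 3.36 TPM in WT_Ctrl replicate 2. Ddx58, which encodes RIG-I, stood at 7.36, 5.05 and 22.9 TPM in S302A_DEN and 9.66, 5.87 and 6.89 TPM in WT_DEN, against 5.22, 5.36 and 5.56 TPM in S302A_Ctrl and 6.68, 7.49 and 5.91 TPM in WT_Ctrl, and DEN and untreated libraries overlapped in both genotypes. Ifih1, which encodes MDA5, ranged from 3.73 to 8.93 TPM in the other 11 libraries and reached 19.9 TPM in S302A_DEN replicate 3.

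Of the secreted and conjugated effectors, Isg15 encodes a ubiquitin-like protein that is attached to other proteins. It stood at 13.6, 7.39 and 42.3 TPM in S302A_DEN and 18.7, 9.74 and 8.14 TPM in WT_DEN, against 4.15, 5.92 and 5.49 TPM in S302A_Ctrl and 9.72, 8.89 and 6.35 TPM in WT_Ctrl. The knock-in groups did not overlap, the wild-type groups did, and every S302A_Ctrl library was below every WT_Ctrl library. Usp18, which encodes the protease that removes ISG15 and damps the receptor, stood at 3.98, 2.17 and 24.7 TPM in S302A_DEN and 7.39, 3.06 and 1.82 TPM in WT_DEN, against 1, 1 and 1.23 TPM in S302A_Ctrl and 1, 2.83 and 1.71 TPM in WT_Ctrl. S302A_DEN was above S302A_Ctrl in every library, and S302A_Ctrl was at or near the floor. Cxcl10, a chemokine that attracts T cells, stood at 1.12, 1 and 31.3 TPM in S302A_DEN and 2.19, 1 and 1.47 TPM in WT_DEN, against 1, 1.12 and 2.46 TPM in S302A_Ctrl and 1.42, 1 and 1.67 TPM in WT_Ctrl. Only S302A_DEN replicate 3 held more than 2.46 TPM of it. Lgals3bp, which encodes a secreted galectin-3-binding glycoprotein, stood at 32.6, 18.0 and 125 TPM in S302A_DEN and 33.9, 23.3 and 20.7 TPM in WT_DEN, against 14.1, 16.6 and 16.5 TPM in S302A_Ctrl and 18.1, 19.5 and 18.4 TPM in WT_Ctrl. Its DEN and untreated libraries did not overlap in the wild type or in the knock-in.

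The IFIT proteins bind viral RNA ends and block translation. Ifit3 stood at 3.99, 1.97 and 23.8 TPM in S302A_DEN and 10.8, 3.79 and 4.79 TPM in WT_DEN, against 1.57, 2.12 and 3.05 TPM in S302A_Ctrl and 3.19, 3.34 and 3.85 TPM in WT_Ctrl. The DEN libraries spread over a wider range than the untreated ones and overlapped with them. Ifit1 ranged from the floor of 1 to 4.65 TPM in the other 11 libraries and reached 12.9 TPM in S302A_DEN replicate 3, and Ifit2 was listed above 1 in that library alone, at 6.27 TPM. Ifit3 has a near-identical neighbour, Ifit3b, so its single value is uncertain.

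The OAS proteins make 2-5-linked oligoadenylates that activate the nuclease RNase L. Oasl1, an OAS-like inhibitor of Irf7 translation in mouse, was the OAS gene with the highest levels outside S302A_DEN replicate 3. It stood at 4.88, 3.41 and 20.8 TPM in S302A_DEN and 8.97, 5.82 and 4.85 TPM in WT_DEN, against 1, 4.55 and 1.35 TPM in S302A_Ctrl and 3.82, 3.90 and 2.46 TPM in WT_Ctrl, with no overlap between the wild-type groups. Oas1a stood at 2.70, 1.26 and 25.6 TPM in S302A_DEN and 2.76, 1.93 and 1.24 TPM in WT_DEN, against 1, 1 and 1.12 TPM in S302A_Ctrl and 1, 1.48 and 1.20 TPM in WT_Ctrl. Outside S302A_DEN replicate 3 it stayed below 3 TPM. Oas1b, whose product is truncated in C57BL/6 mice, stood at 1.88, 1.90 and 5.31 TPM in S302A_DEN and 2.71, 1.67 and 1.08 TPM in WT_DEN, against 1, 1.01 and 1 TPM in S302A_Ctrl and 1.11, 1.78 and 1.16 TPM in WT_Ctrl. Its knock-in groups did not overlap, and S302A_Ctrl was at or near the floor. Oas2 reached 12.6 TPM in the same library and at most 1.98 TPM elsewhere. Oasl2 passed the filter only through DEN libraries, with 1.27, 1 and 9.81 TPM in S302A_DEN and 1.35, 1 and 1 TPM in WT_DEN, against 1 in each untreated library. Oas1g and Oas3 were above 1 only in S302A_DEN replicate 3, at 12.5 and 2.60 TPM. Oas1a, Oas1b and Oas1g are close paralogs, so the split of reads between them is uncertain.

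Among the other antiviral effectors, Mx1 (chr16:97447035-97462906) had the largest gap between libraries. Mx1 encodes a dynamin-like GTPase that blocks influenza virus, and the C57BL/6 allele is defective. It stood at 1, 1 and 111 TPM in S302A_DEN and 1.54, 1 and 1 TPM in WT_DEN, against 1 TPM in every S302A_Ctrl and WT_Ctrl library. S302A_DEN replicate 3 held 71.8 times the next highest library, and 10 of 12 libraries were at the floor. Mx2 stood at 2.88, 2.85 and 28.8 TPM in S302A_DEN and 5.29, 2.76 and 4.91 TPM in WT_DEN, against 2.00, 2.60 and 1.25 TPM in S302A_Ctrl and 3.77, 3.15 and 1.70 TPM in WT_Ctrl, and its knock-in groups did not overlap. Bst2 stood at 182, 124 and 464 TPM in S302A_DEN and 209, 207 and 140.0 TPM in WT_DEN, against 141, 103 and 124 TPM in S302A_Ctrl and 146, 156 and 119 TPM in WT_Ctrl. Apart from S302A_DEN replicate 3, the Bst2 levels of the groups overlapped.

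Zbp1, a sensor of Z-form nucleic acids that can trigger necroptosis, stood at 6.09, 3.01 and 15.0 TPM in S302A_DEN and 9.91, 4.82 and 3.90 TPM in WT_DEN, against 1.22, 2.47 and 2.55 TPM in S302A_Ctrl and 3.31, 4.31 and 2.51 TPM in WT_Ctrl. Xaf1, a pro-apoptotic partner of XIAP, stood at 7.43, 5.13 and 31.8 TPM in S302A_DEN and 10.7, 4.60 and 4.11 TPM in WT_DEN, against 2.61, 3.27 and 3.15 TPM in S302A_Ctrl and 3.82, 5.13 and 3.45 TPM in WT_Ctrl. For Zbp1 and Xaf1, S302A_DEN libraries were above every S302A_Ctrl library, while the wild-type groups overlapped. Ifi35, a leucine zipper protein of the cytosol, stood at 34.1, 21.4 and 47.9 TPM in S302A_DEN and 33.3, 22.9 and 23.1 TPM in WT_DEN, against 16.6, 19.3 and 25.3 TPM in S302A_Ctrl and 23.0, 19.9 and 21.2 TPM in WT_Ctrl. Rtp4, a transporter-like protein, stood at 6.66, 3.71 and 31.7 TPM in S302A_DEN and 10.04, 5.41 and 6.63 TPM in WT_DEN, against 4.21, 4.004 and 4.31 TPM in S302A_Ctrl and 6.999, 4.89 and 4.70 TPM in WT_Ctrl. Both genes overlapped between DEN and untreated libraries in each genotype, and for Rtp4 every S302A_Ctrl library was below every WT_Ctrl library. Rsad2, which encodes viperin, an enzyme that makes a chain-terminating nucleotide, was at most 2.87 TPM outside S302A_DEN replicate 3 and 8.73 TPM in it. Trim30a reached 5.38 TPM and Ifi44 10.5 TPM in that library, against at most 1.42 TPM and 1 TPM elsewhere.

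The IFI27-like genes encode small membrane proteins, and Ifi27l2b (chr12:103450898-103457223) was the only member whose DEN difference passed the test with all 12 libraries. It stood at 21.2, 22.5 and 184 TPM in S302A_DEN and 19.1, 4.12 and 12.4 TPM in WT_DEN, against 1.51, 3.65 and 1.85 TPM in S302A_Ctrl and 3.59, 11.7 and 3.36 TPM in WT_Ctrl. All S302A_DEN libraries were above every other library, and S302A_Ctrl replicates 1 and 3 were the lowest of the 12. Its neighbour Ifi27l2a stood at 12.8, 3.42 and 81.5 TPM in S302A_DEN and 12.3, 6.08 and 5.23 TPM in WT_DEN, against 3.60, 3.29 and 10.2 TPM in S302A_Ctrl and 3.34, 7.43 and 5.79 TPM in WT_Ctrl, with overlap between all groups apart from S302A_DEN replicate 3. The 2 genes are paralogs, so reads may be split between them, which was not tested.

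Parp9, Dtx3l and Parp14 encode an ADP-ribosyltransferase, its ubiquitin ligase partner and a related ADP-ribosyltransferase. Parp9 and Dtx3l lie side by side on chromosome 16 with annotated ends that overlap, where the split of reads between them is uncertain. Parp9 stood at 14.7, 12.8 and 29.6 TPM in S302A_DEN and 21.0, 14.3 and 15.3 TPM in WT_DEN, against 8.30, 12.9 and 9.17 TPM in S302A_Ctrl and 13.4, 11.8 and 10.2 TPM in WT_Ctrl. The wild-type groups did not overlap, and the knock-in groups overlapped by a narrow margin through S302A_Ctrl replicate 2. Parp14 stood at 3.96, 2.91 and 13.6 TPM in S302A_DEN and 5.62, 3.03 and 3.52 TPM in WT_DEN, against 2.35, 2.63 and 2.65 TPM in S302A_Ctrl and 4.12, 3.36 and 3.03 TPM in WT_Ctrl, with no overlap between the knock-in groups. Dtx3l ranged from 5.82 to 13.9 TPM in the other 11 libraries and reached 18.5 TPM in S302A_DEN replicate 3. Tap1, the peptide transporter of MHC class I and also a target of interferon gamma, ranged from 3.92 to 10.1 TPM in those libraries and reached 12.3 TPM there.

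**Figure D2:**
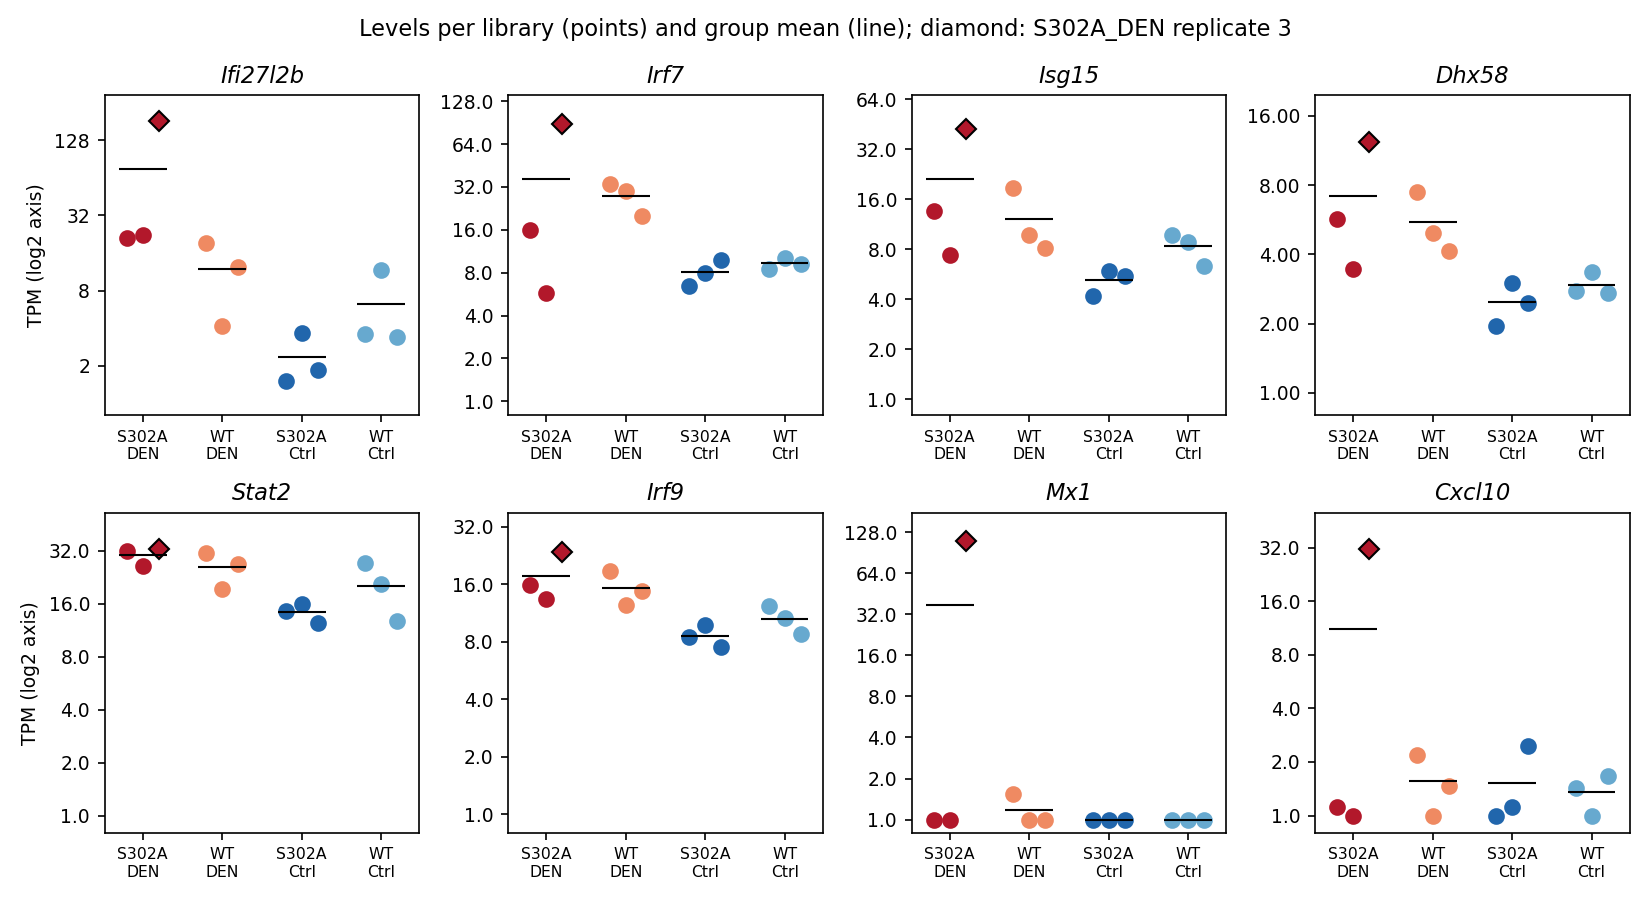
TPM of 8 members in each library on a log2 axis, by group, with the group mean as a line. Diamonds mark S302A_DEN replicate 3, which is included in the mean, and it is the highest point in each of the 8 panels, by 1.03-fold over the next library for Stat2 and by 71.8-fold for Mx1.

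DEN against no treatment in knock-in livers gave a larger median difference among the members than in wild-type livers with all 12 libraries (1.03 against 0.41). Without S302A_DEN replicate 3 it was slightly smaller (0.37 against 0.41). The medians over all tested genes also differed between knock-in and wild type, with 0.27 against 0.13 and, without that library, 0.00 against 0.14. The order of the members' medians alone therefore does not compare the genotypes. Ifi27l2b rose by 3.83 on the log2(TPM + 1) scale (SE 0.76, limma adjusted p = 0.0434). No other of the 32 tested members passed the test, and the members called were thus 1 of 32 against 0.619% of all tested genes. Among those with the smallest p were Stat2 with a difference of 1.02 (SE 0.27, adjusted p = 0.104), Irf9 with 0.93 (SE 0.25, adjusted p = 0.109), Dhx58 with 1.09 (SE 0.34, adjusted p = 0.171) and Isg15 with 1.51 (SE 0.49, adjusted p = 0.178). Differences of Oas1b, Xaf1, Zbp1, Usp18 and Lgals3bp were 0.91, 1.58, 1.35, 1.84 and 1.37, with adjusted p of 0.179 to 0.223.

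In this comparison all 32 tested members had a positive difference, against 79.3% of all tested genes, and the median was 1.03 (range 0.52 to 3.83) against 0.27. The 32 include Oasl2, which was at the floor in every untreated library and passed the filter only through DEN libraries. Its DEN difference could therefore not be negative in either genotype. At an unadjusted p below 0.05, 19 of the 32 were higher, against 13.8% of all tested genes, and for 15 every S302A_DEN library was above every S302A_Ctrl library, against 15.8%. Without S302A_DEN replicate 3 the median over 31 members was 0.37, against 0.00 for all tested genes, with 27 positive, against 49.3% of all tested genes, and 4 negative. Ifi27l2b then differed by 2.83 (SE 0.57, adjusted p = 0.0319) and remained the only member called, against 1.22% of genes called higher. Without that library 10 of 31 members were higher at an unadjusted p below 0.05, against 8.37%, and groups did not overlap for 15, against 17.2%. Irf9 and Stat2 kept most of their difference there, with 0.71 (adjusted p = 0.0945) and 0.97 (adjusted p = 0.106), whereas Irf7 had 0.25 and Cxcl10 −0.25.

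The call of Ifi27l2b had a narrow margin. Its adjusted p was 0.166 without a filter, 0.0656 with robust moderation, 0.112 with the libraries of the contrast alone, 0.0665 with the replicate number as a block and 0.0501 to 0.202 when any of 8 libraries was left out (any WT_DEN or S302A_Ctrl library, or WT_Ctrl replicate 1 or 3). After median-of-ratios scaling 3 members were called, Ifi27l2b, Irf9 (0.63, adjusted p = 0.0229) and Dhx58 (0.83, adjusted p = 0.0473), against 5.37% of all tested genes called. All 32 differences stayed positive under that scaling, against 50.8% of all tested genes.

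**Figure D3:**
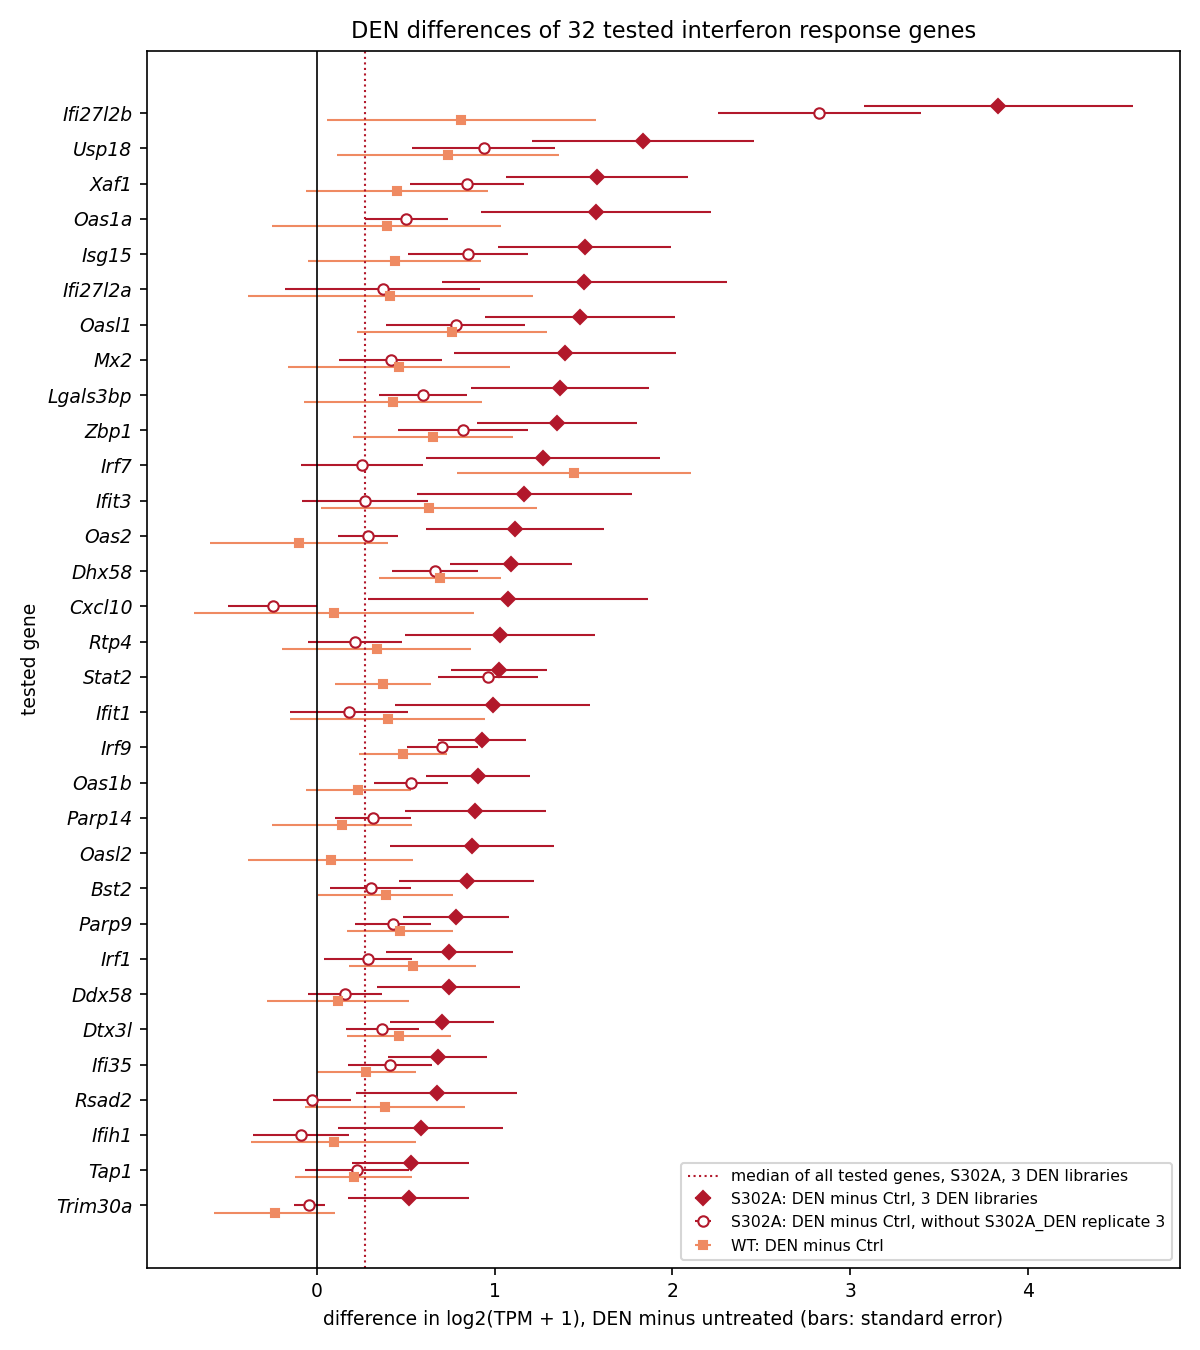
Difference in log2(TPM + 1) between DEN and untreated livers for the 32 tested members, with standard errors as bars. Red diamonds are the knock-in with 3 DEN libraries, open circles the knock-in without S302A_DEN replicate 3 and orange squares the wild type; the dotted line is the median of all tested genes in the knock-in, 0.27. The diamonds run from 0.52 to 3.83, and each open circle lies to the left of its diamond.

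DEN against no treatment was then compared in wild-type livers. With all 12 libraries in the fit, none of the 32 tested members passed the test in limma, against 0.132% of all tested genes, and 1 member, Irf7, was higher at an unadjusted p below 0.05, against 6.89%. Irf7 differed by 1.45 (SE 0.66, adjusted p = 0.600), Dhx58 by 0.69 (SE 0.34, adjusted p = 0.632) and Irf9 by 0.49 (SE 0.25, adjusted p = 0.647). Parp9, Oasl1 and Lgals3bp, also without overlap between groups, differed by 0.47, 0.76 and 0.43. In all, 30 of 32 members had a positive difference, against 70.4% of all tested genes, with a median of 0.41 against 0.13. WT_DEN was above WT_Ctrl without overlap for 7 members, against 21.7%, and below it for Trim30a alone, against 3.21%.

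The spread shared by the groups included S302A_DEN replicate 3. Without that library the difference of Irf7 between WT_DEN and WT_Ctrl was the same 1.45 with an SE of 0.31, and Irf7 was called higher (adjusted p = 0.0433, against 1.93% of genes called higher). Its adjusted p was 0.0190 with the libraries of the contrast alone and 0.0605 without S302A_DEN replicate 3 after median-of-ratios scaling. After that scaling of all 12 libraries, 25 members were positive, against 47.2% of all tested genes, and 7 negative. Of the WT_DEN libraries, replicate 1 was highest for 29 of 32 members, against 62.5% of all tested genes, and without it the median difference was 0.21.

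S302A_DEN against WT_DEN asked whether the knock-in changed the members after DEN. With all libraries none of the 32 was called, against 0.380% of all tested genes, and 1 was higher at an unadjusted p below 0.05, against 2.93%. That gene, Ifi27l2b, differed by 2.04 (SE 0.76, adjusted p = 0.416) and was the only member without overlap between the groups, against 3.23% of genes higher without overlap. The median over members was 0.37 against 0.07, with 30 of 32 positive, against 60.0%.

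The direction between the DEN groups turned when S302A_DEN replicate 3 was left out. The median was then −0.23 against −0.20 for all tested genes, with 6 members positive, against 21.0% of all tested genes, and 25 not. Irf7 fell by 1.39 (SE 0.34, adjusted p = 0.0397) and was the only member called, against 5.30% of all tested genes called lower. After median-of-ratios scaling the median without that library was −0.01 with 14 of 31 positive, against 52.5% of all tested genes, and Irf7 differed by −1.15 (adjusted p = 0.0880). Ifi27l2b stayed positive without that library, at 1.04 (adjusted p = 0.300).

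Untreated knock-in livers stood slightly below untreated wild-type livers. No member was called, against 0.0330% of all tested genes, and at an unadjusted p below 0.05 no member was higher (0.561% of all tested genes) or lower (0.916%). Isg15 averaged 5.19 ± 0.919 TPM in S302A_Ctrl and 8.32 ± 1.75 TPM in WT_Ctrl (SD, n = 3 each), a difference of −0.58 (SE 0.49, limma adjusted p = 1). Ifit3, Parp14, Xaf1, Rtp4, Ddx58 and Lgals3bp differed by −0.48, −0.34, −0.35, −0.32, −0.27 and −0.24. For these 7, Oas1b and Trim30a, every S302A_Ctrl library was below every WT_Ctrl library, 9 of 32 members against 5.27% of all tested genes. Rsad2 was above without overlap, against 1.69%. Oas1b, Trim30a and Rsad2 separated close to the floor of 1. Oas1b stood at most at 1.01 TPM in S302A_Ctrl against at least 1.11 TPM in WT_Ctrl, and Trim30a at most at 1.15 against at least 1.31 TPM. For Rsad2 it was at least 1.13 against at most 1.10 TPM. The median was −0.22 against −0.07, with 2 of 32 members positive, against 31.6%, and 27 of 32 were negative after median-of-ratios scaling, against 47.8%.

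The interaction, the DEN difference in the knock-in minus that in the wild type, was called for none of the 32 members (0.0413% of all tested genes), and 1 member was higher at an unadjusted p below 0.05, against 2.23%. That member, Ifi27l2b, had 3.02 (SE 1.07, adjusted p = 0.699). The median interaction was 0.68 against 0.14 with all libraries, and 0.02 against −0.13 without S302A_DEN replicate 3. Without that library Ifi27l2b had 2.01 (adjusted p = 0.256) and Irf7 −1.19 (adjusted p = 0.264), the largest values in each direction. The interaction was then positive for 17 of 31 members, against 33.9% of all tested genes. With median-of-ratios scaling as well, it was positive for 24 of 31, against 51.4%.

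S302A_DEN replicate 3 was the highest of the 12 libraries for all 32 tested members, against 70.8% of all tested genes, and for the 5 members not tested. After median-of-ratios scaling it was highest for 26 of the 32, against 24% of all tested genes. Because this library was set apart with its values known, what follows is a description with no test. Its log2(TPM + 1) exceeded the mean of S302A_DEN replicates 1 and 2 by a median of 2.06 over the 32 tested members, against 0.79 for all tested genes. The difference was at least 1 for 28 of the 32, against 33.2%. The smallest was 0.18 for Stat2 and the largest among tested members was 3.97 for Cxcl10, while Mx1 had 5.81. After median-of-ratios scaling the median was 1.22 against −0.00, and Irf9, Stat2 and Ifi35 then lay below the mean of the other replicates.

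By role, the median difference of this library was 3.21 for the IFI27-like pair, 2.69 for Usp18, 2.55 for the tested IFIT genes, 2.34 for the tested OAS genes and 2.32 for the secreted and conjugated effectors. It was 1.89 for the other tested antiviral effectors, 1.75 for the RNA sensors, 1.05 for the Parp9 group and 1.02 for the transcription factors. Tap1 had 0.90, and all tested genes had 0.79. After median-of-ratios scaling Parp9, Dtx3l and Parp14 had 0.18, 0.15 and 0.91, and Tap1 had 0.09. Irf7, Irf1, Irf9 and Stat2 then had 2.17, 0.48, −0.20 and −0.70. Without scaling, members with an ISRE core in the promoter window had a median of 2.02 (n = 13) and those without the element had 1.98 (n = 12). Of the 32 tested members, 7 stood at least 5-fold above the next highest library in it, against 1.66% of all tested genes. The 7 include Oasl2, which passed the filter only through DEN libraries, this library among them.

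The next highest library was often WT_DEN replicate 1, which led the other 11 libraries for 24 of 32 tested members, against 34.0% of all tested genes. After median-of-ratios scaling it led for 13 of 32, against 6.84%. Within S302A_DEN, replicate 1 was above replicate 2 for 27 of 32 members, against 74.6% of all tested genes, with a median difference of 0.45 against 0.19 for all tested genes.

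The other genes of the pathway were described from lists chosen from general knowledge, also with earlier results of these data known. Between S302A_DEN and S302A_Ctrl, 0.619% of all tested genes were called and the median over all tested genes was 0.27, or 0.00 without S302A_DEN replicate 3, and the lists are given beside these values. The 19 interferon genes with a row, among them Ifnb1, 12 alpha-type genes and Ifng, were at the floor of 1 in all 12 libraries. Of 12 tested genes of the receptors and JAK-STAT signalling, none was called between S302A_DEN and S302A_Ctrl, and their median difference was 0.43, or −0.03 without S302A_DEN replicate 3. Stat3, which mainly serves interleukin signalling, had the smallest p of the list, with a difference of 0.74 (SE 0.21, limma adjusted p = 0.124).

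Of 11 tested nucleic acid sensing genes and 33 other tested interferon-induced genes, none was called in that comparison, with medians of 0.47 and 0.50, or 0.21 and 0.05 without S302A_DEN replicate 3. Ifitm3, which blocks viral membrane fusion, had the smallest adjusted p of these lists, 0.0840, with a difference of 0.83. It stood at 971, 640.0 and 912 TPM in S302A_DEN and 907, 892 and 833 TPM in WT_DEN, against 467, 422 and 508 TPM in S302A_Ctrl and 659, 551 and 476 TPM in WT_Ctrl. Every DEN library was above the untreated libraries of its own genotype. The smallest p among the sensing genes was that of Ticam1, the adaptor of Toll-like receptor 3, with a difference of 0.86 (SE 0.28, limma adjusted p = 0.177). None of 12 MHC class I presentation genes (median 0.44, or 0.13 without that library) or 4 tested interferon gamma targets (median 0.75, or 0.35) was called.

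**Figure D4:**
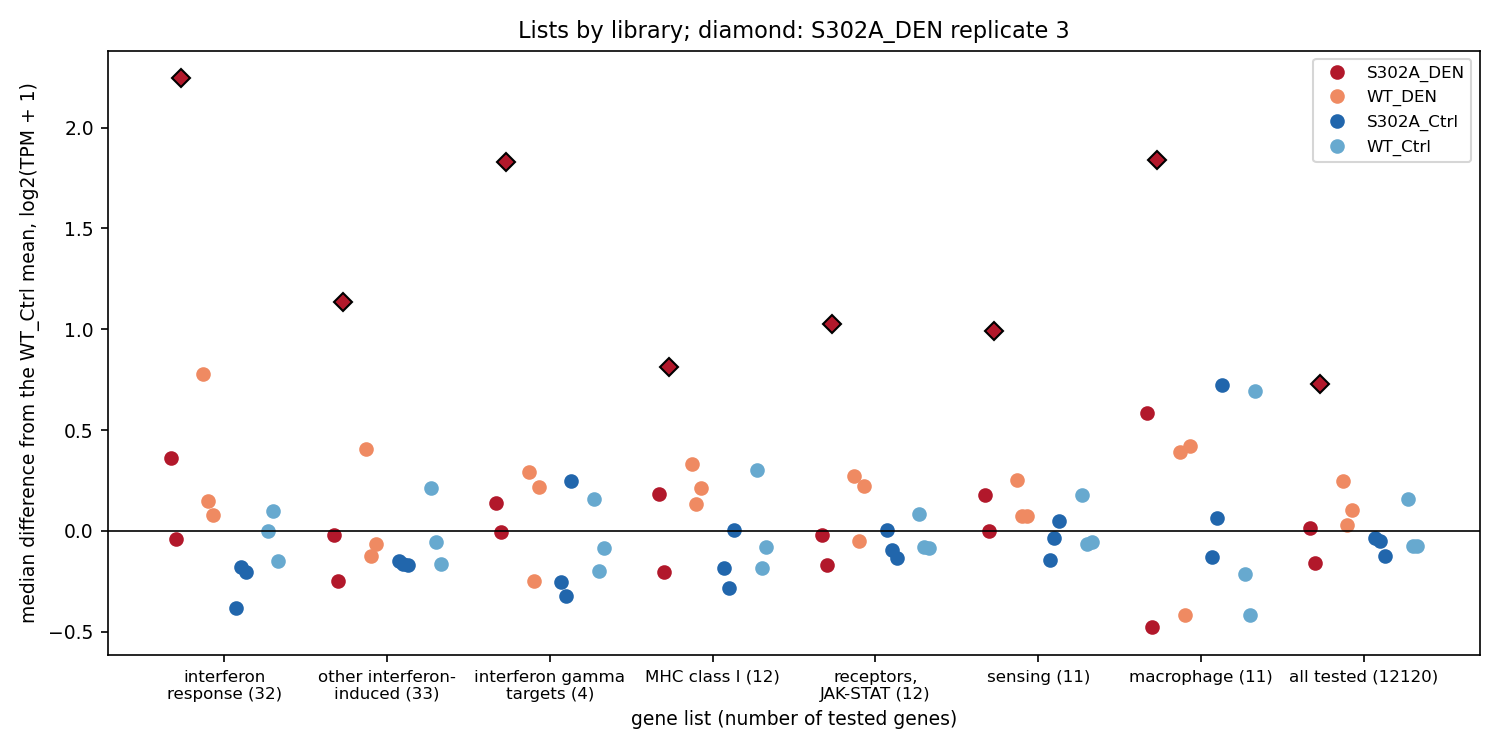
Median difference of each library from the WT_Ctrl mean, in log2(TPM + 1), for the 32 tested members, 6 other lists and all 12120 tested genes. Points are libraries coloured by group, and the diamond is S302A_DEN replicate 3, which stands at 2.25 for the members and 0.73 for all tested genes, while WT_DEN replicate 1 stands at 0.78 for the members.

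Several marker lists of non-hepatocyte liver cells also stood high in S302A_DEN replicate 3. The 11 macrophage markers with a row summed to 266, 101 and 685 TPM in S302A_DEN replicates 1 to 3, 118 to 229 TPM in WT_DEN, 144 to 248 TPM in S302A_Ctrl and 111 to 256 TPM in WT_Ctrl. In S302A_DEN replicate 3, 8 of the 11 (72.7%) were highest of the 12 libraries, a share close to the 70.8% of all tested genes, and their median difference from replicates 1 and 2 was 1.15, against 0.79 for all tested genes. The macrophage complement gene C1qa stood at 35.2, 14.4 and 144 TPM in S302A_DEN, against at most 32.3 TPM in the other groups. Clec4f, Marco and Cd163 were not highest in S302A_DEN replicate 3, where they stood at 38.9, 17.5 and 1.44 TPM. Clec4f reached 47.7 TPM in WT_DEN replicate 1, and Marco and Cd163 reached 32.9 and 2.80 TPM in S302A_DEN replicate 1. The 8 stellate cell markers summed to 86.0, 40.9 and 252 TPM in S302A_DEN replicates 1 to 3, 77.7 to 106 TPM in WT_DEN, 55.7 to 65.5 TPM in S302A_Ctrl and 64.3 to 84.6 TPM in WT_Ctrl, and all 8 were highest in S302A_DEN replicate 3, with a median difference of 1.42. Of 7 tested sinusoidal endothelial markers, 5 (71.4%) were highest there, again close to the 70.8% of all tested genes, with a median difference of 1.27, against 0.79. The other tested markers of this list were Clec4g and Oit3. Clec4g stood at 25.7, 15.7 and 20.6 TPM in S302A_DEN and 37.3, 31.7 and 39.0 TPM in WT_DEN. Sox9, the 1 tested cholangiocyte marker, stood at 4.24, 2.35 and 13.3 TPM in S302A_DEN and at most 1.68 TPM in the other groups. The 5 markers of plasmacytoid dendritic cells, the main interferon-producing cells of blood, were at the floor in all 12 libraries. Of the 8 T cell markers, Cd8a, Cd8b1 and Cd2 were at the floor in all 12. The list summed to 12.3 TPM in S302A_DEN replicate 3 and 8 to 9.70 TPM in the other 11 libraries, where 8 is the floor. Monocyte markers summed to 11.1 TPM there, against 4 to 4.91 TPM, and natural killer cell markers to 10.6 TPM, against 7 to 8.93 TPM. The sums were 8.01 against 5 to 5.90 TPM for B and plasma cells and 8.79 against 6 to 7.27 TPM for conventional dendritic cells. The neutrophil sum was 25.6 TPM, against 8.19 to 24.1 TPM. The part of these cell types and of the generally higher gene levels in S302A_DEN replicate 3 in the members' values was not tested.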

How the data were processed

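The deposited values are TPM per gene symbol, 1 table per library, and the authors estimated them with kallisto, a pseudoalignment program, on mm10, per the submitters' processing notes. The kallisto version and the annotation release are not given in the sources used here. Groups followed the labels. Values were analysed as log2(TPM + 1), so a difference understates the change of low genes. Genes above 1 TPM in at least 3 of 12 libraries were fitted in 1 linear model of the 4 groups with limma 3.58.1 in R 4.3.3 (empirical Bayes with a mean-variance trend, 8 residual degrees of freedom). Tests were two-sided with Benjamini-Hochberg adjustment over all 12120 genes at a threshold of 0.05. The fit was tested on simulated data that held neither a floor at 1 nor a library set apart like S302A_DEN replicate 3. The members and lists were chosen with earlier results of these data known. Genes named were the 10 members with the highest mean TPM, the 10 with the largest difference of S302A_DEN replicate 3 from replicates 1 and 2, and in each comparison up to 10 members called or without overlap between groups, with a mean of at least 2 TPM in the higher group. Ranges for the remaining members were added. The alternatives tried were other pseudocounts (0.1 and 0.5), dropping the filter or raising it to 5 TPM, median-of-ratios scaling, quantile normalization, robust moderation, the libraries of a contrast alone, a replicate block and leaving out each library. The ISRE core and GAS motifs were chosen from general knowledge and searched on both strands, overlapping matches included. Coordinates, promoters and motif counts come from RefSeq tables of GRCm38.p6, matched by symbol.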

Additional observations from a re-analysis of the deposited data

How the results depend on the processing

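The number of members called between S302A_DEN and S302A_Ctrl, 1 with the settings reported, was 0 without a filter, with robust moderation and with the libraries of the contrast alone, where 0.0128%, 0.693% and 0.149% of all tested genes were called, against 0.619% with the settings reported. It was 3 with median-of-ratios scaling (5.37% of all tested genes), 4 with quantile normalization (5.61%) and 3 without S302A_DEN replicate 3 with median-of-ratios scaling (7.11%). Leaving out each library gave 0 to 6 calls, the 6 without S302A_DEN replicate 2, where 2.78% of all tested genes were called. Between WT_DEN and WT_Ctrl the count of 0 became 1 (Irf7) with the libraries of the contrast alone (1.28% of all tested genes), and 0 to 1 when each library was left out. Between S302A_DEN and WT_DEN it was 0 to 1, the 1 without S302A_DEN replicate 3 (5.89% of all tested genes). The counts for S302A_Ctrl against WT_Ctrl and for the interaction stayed 0 under each alternative run. The causes were not tested.

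Leaving out each library moved the members' median difference to between 0.37 and 1.48 for S302A_DEN against S302A_Ctrl, 0.21 and 0.53 for WT_DEN against WT_Ctrl, −0.23 and 0.77 for S302A_DEN against WT_DEN, −0.31 and −0.18 for S302A_Ctrl against WT_Ctrl, and 0.02 and 1.11 for the interaction. For the comparisons with S302A_DEN and for the interaction, the lowest came without S302A_DEN replicate 3 and the highest without S302A_DEN replicate 2. With the replicate number as a block, 0 members were called between S302A_DEN and S302A_Ctrl (0.495% of all tested genes), with a lowest adjusted p of 0.0665, that of Ifi27l2b. Whether the numbers pair the samples could not be settled. Taken as deviations from the group mean, same-numbered libraries of different groups had correlations of −0.19 to 0.28 over 18 pairs, and 5 were over 0.1. Differently numbered libraries spanned a similar range, −0.23 to 0.26. Depth is unknown, so counting error at low TPM could not be assessed.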
